A study of Mus musculus with 15 samples.

Results

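Invariant natural killer T (iNKT) cells of the inguinal lymph node (iLN) were compared with iNKT cells of the thymus, gene by gene, in bulk RNA-seq libraries. The samples were chosen by their tissue label, which gave 7 of the 15 samples, 3 from iLN (replicates 2, 3 and 4) and 4 from thymus (replicates 1 to 4). The study sorted iNKT cells from lymphoid tissues of mice to ask how these cells differ between sites. The other 8 samples, 4 from mesenteric lymph node (mLN) and 4 from spleen, entered the same fit and give reference levels. Both tissues came from WT C57BL/6 mice aged 6 weeks, with no treatment named, and went through the same sort gate. The gate took cells stained by TCRβ antibody and by a CD1d tetramer loaded with PBS57, without staining for B220, CD11b, CD11c or CD8. Whether each replicate came from a single mouse or from pooled mice is not given in the labels, so the p-values measure the spread between these samples. For flow cytometry, the study's methods describe a short collagenase digestion of lymph nodes and only straining for thymus and spleen. Whether the cells for RNA-seq were prepared in that way is not stated, and if they were, tissue and preparation cannot be told apart.

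Invariant NKT cells are T cells with a semi-invariant receptor that recognises lipid antigens presented by CD1d. They arise in the thymus and depend on the transcription factor PLZF, encoded by Zbtb16. Effector subsets are named after the helper T cells they resemble: NKT1 cells depend on T-bet and carry NK cell receptors, NKT2 cells produce IL-4, and NKT17 cells respond to IL-23.

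Levels are normalised CPM, the deposited expected count of a gene relative to the scaled total count of its library. Per-sample values are listed in the order of the replicate numbers, 2, 3 and 4 for iLN and 1 to 4 for thymus. Library totals in iLN were 5256722, 4080550 and 5360793 expected counts. In thymus they were 8161474, 1152702, 4340040 and 5711835, so thymus replicate 2 was the shallowest library. Replicates 3 and 4 of both tissues belong to batch 1, and iLN replicate 2 with thymus replicates 1 and 2 belong to batch 2. Log2 fold changes are iLN over thymus from a fit of tissue and batch to all 15 samples, so positive values mean higher in iLN. A gene was called at an edgeR adjusted p under 0.01 and a fold change over 1.5, and rose or fell is written of called genes only. Counting intervals cover counting error only.

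The libraries carried the transcripts of iNKT cells in both tissues. Cd3e (ENSMUSG00000032093, chromosome 9, 44998740 to 45009627), a subunit of the T cell receptor complex, had 1321, 1233 and 1378 CPM in iLN and 1299.7, 1429.7, 1331 and 1337 CPM in thymus. Trac (ENSMUSG00000076928, chromosome 14, 54220521 to 54224206), the constant region of the TCR α chain, had 829, 765 and 1059 CPM in iLN and 820.0, 798, 875 and 923 CPM in thymus. Trav11 (ENSMUSG00000096615, chromosome 14, 53519303 to 53519859), which encodes the Vα14 segment of the invariant receptor, had 222, 190.2 and 212 CPM in iLN and 259, 239, 209 and 335 CPM in thymus. In all 3 genes the samples of the tissues overlapped, and none was called, with log2 fold changes of -0.04, 0.03 and -0.34 and edgeR adjusted p of 0.915, 0.952 and 0.324. Zbtb16 (ENSMUSG00000066687, chromosome 9, 48654297 to 48836222) had 185, 269 and 233 CPM in iLN and 113, 126, 117 and 129 CPM in thymus. Every iLN sample lay above every thymus sample for Zbtb16, but the gene missed the call (log2 fold change 0.88 ± 0.21 (SE), edgeR adjusted p = 0.0223), which DESeq2 made (log2 fold change 0.89, adjusted p = 0.00351). Trav11 shares reads with near-identical Trav11d, so its share of their reads is uncertain. Of the list of T cell and iNKT identity genes, 14 of 15 passed the filter on low counts. Of these, 1 was called higher, 0 lower and 13 not at all, with a median log2 fold change of 0.13 beside 0.03 over all genes tested. The called gene was Thy1 (ENSMUSG00000032011, chromosome 9, 44043384 to 44048579), a surface glycoprotein of T cells, with 902, 1197 and 1129.6 CPM in iLN and 413, 391, 583 and 639 CPM in thymus. Its lowest iLN sample was above its highest thymus sample (log2 fold change 1.01 ± 0.14 (SE), edgeR adjusted p = 0.000342). The call of Thy1 was lost with no batch term (log2 fold change 1.09, edgeR adjusted p = 0.0337) and in batch 1 alone (0.92, 0.017).

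Between iLN and thymus, 204 of the 13600 genes tested were called, which is 1.5% of them. The called genes comprised 119 that rose in iLN (0.875%) and 85 that fell (0.625%). At least 8-fold differences were fitted for 44 genes higher in iLN and 28 lower. Genes of the NKT17 program, cytokine receptors and homing receptors were among those that rose, while NK cell receptors and cytotoxic genes were among those that fell. The samples of the tissues did not overlap in 1816 genes (13.4% of those tested), among them 196 of the 204 called. Over all genes tested, with batch left in, log2 CPM of iLN replicates 2, 3 and 4 correlated with another iLN library by at most 0.848, 0.855 and 0.855. With a thymus library they reached 0.852, 0.875 and 0.862, so each iLN library was closer to a thymus library. Thymus libraries correlated more with another thymus library (0.895 to 0.958) than with any iLN library (0.818 to 0.875). At an unadjusted p under 0.05 there were 2244 genes (16.5%), 1155 higher in iLN (8.49%) and 1089 lower (8.01%), and counts of list members at that level stand beside these shares. Most called genes, 192, were protein-coding. Batch 1 alone, with 2 samples of each tissue, called 114 genes, and batch 2 alone, with 1 iLN and 2 thymus samples, called 7. Without thymus replicate 3, 104 genes were called, without thymus replicate 4, 112, and without iLN replicate 4, 127. The genes called higher numbered 64, 72 and 74 without those 3 samples. The genes called lower numbered 49, 55, 40 and 40 without thymus replicates 1, 2, 3 and 4, and 54 and 53 without iLN replicates 2 and 4. In bulk samples, fewer cells of a type and less RNA per cell cannot be told apart.

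**Figure D1:**
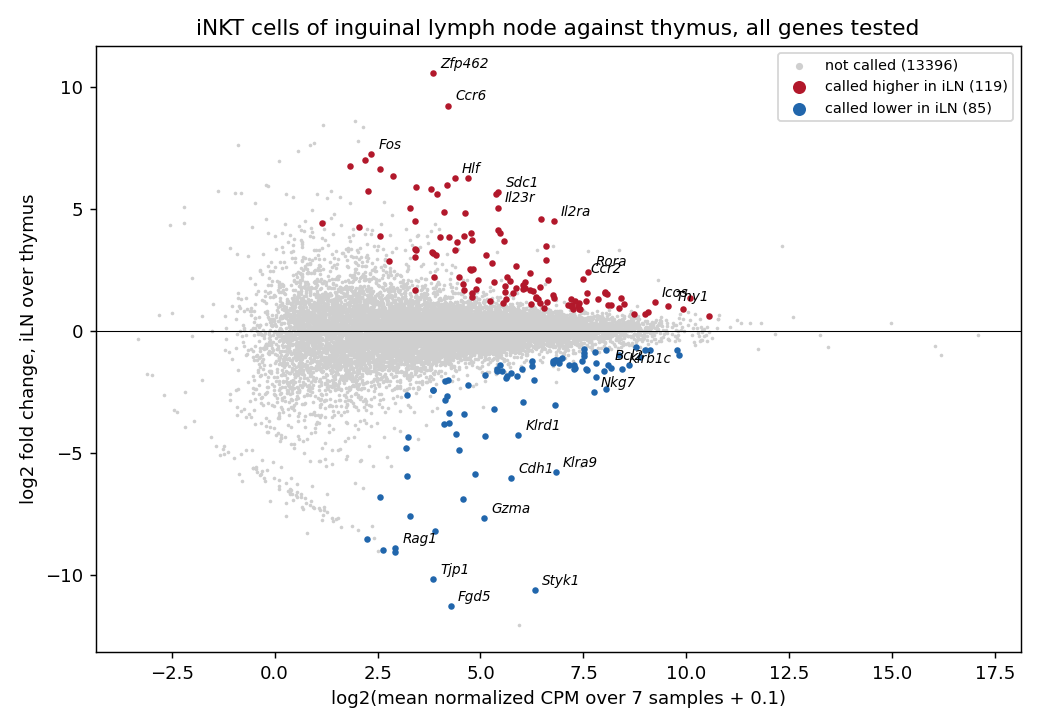
Each point is 1 of 13600 genes, with log2 of the mean normalised CPM over the 7 samples plus 0.1 on the x axis and the log2 fold change of iLN over thymus on the y axis. Red points are the 119 genes called higher in iLN and blue points the 85 called lower, with Zfp462 and Ccr6 at the top and Fgd5, Styk1 and Tjp1 at the bottom.

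Many genes of the NKT17 program rose in iLN. Of 19 listed genes, 16 passed the filter on low counts, and 11 of them were called higher, 0 lower and 5 not called. Their median log2 fold change was 3.84, beside 0.03 over all genes tested. The cytokine genes Il17a, Il17f and Il22 were the 3 below the filter. Rora (ENSMUSG00000032238, chromosome 9, 68653786 to 69388246), a nuclear receptor, had 337, 284 and 461 CPM in iLN and 91.7, 73.5, 70.0 and 52.0 CPM in thymus. Its samples did not overlap (log2 fold change 2.42 ± 0.19 (SE), edgeR adjusted p = 4.73e-07; within batches 2.61 in batch 1 and 2.01 in batch 2), and the spleen mean of 345 CPM lay within the range of the iLN samples. Maf (ENSMUSG00000055435, chromosome 8, 115682942 to 115707794), a transcription factor of IL-17-producing T cells, also rose (log2 fold change 1.2 ± 0.18 (SE), edgeR adjusted p = 0.000411).

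Receptors on this list rose as well. Il23r (ENSMUSG00000049093, chromosome 6, 67422932 to 67491855), a chain of the IL-23 receptor, had 74.1, 92.4 and 119.9 CPM in iLN and 6.54, 3.68, 0.275 and 1.90 CPM in thymus. The 3 iLN samples were far above the 4 thymus samples, of which replicate 3 was the lowest (log2 fold change 5.05 ± 0.91 (SE), edgeR adjusted p = 0.00305; within batches 6.44 in batch 1 and 3.78 in batch 2). The call was lost without any 1 of thymus replicates 2, 3 and 4 and iLN replicate 4 (adjusted p between 0.0117 and 0.0240). Ccr6 (ENSMUSG00000040899, chromosome 17, 8236043 to 8257141), a receptor for the chemokine CCL20, had 39.7, 27.6 and 61.1 CPM in iLN and 0.370, 0, 0 and 0 CPM in thymus. Thymus replicate 1 held the 3 counts found in thymus, and the ratio of iLN to thymus was 275 (95% counting interval 93.9 to 1339), with an edgeR adjusted p of 0.00289. The call of Ccr6 was lost without any 1 of thymus replicates 1, 2, 3 and 4 and iLN replicate 4 (adjusted p between 0.0118 and 0.0257). Il1r1 (ENSMUSG00000026072, chromosome 1, 40225080 to 40317257), the receptor for IL-1, had 65.3, 69.4 and 161 CPM in iLN and 10.9, 16.9, 4.96 and 4.36 CPM in thymus, with no overlap (log2 fold change 3.68 ± 0.51 (SE), edgeR adjusted p = 0.000273).

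Other members of the list have varied roles. Sdc1 (ENSMUSG00000020592, chromosome 12, 8771323 to 8793715) encodes syndecan-1, a heparan sulfate proteoglycan used as a surface marker of NKT17 cells. It had 55.3, 102 and 137 CPM in iLN and 0.740, 0, 4.96 and 1.33 CPM in thymus. All iLN samples were more than 10 times above all thymus samples (log2 fold change 5.67 ± 0.58 (SE), edgeR adjusted p = 1.13e-05; within batches 5.31 in batch 1 and 6.58 in batch 2). Serpinb1a (ENSMUSG00000044734, chromosome 13, 32842092 to 32851185), a protease inhibitor, had 24.4, 46.9 and 43.6 CPM in iLN and 1.36, 3.68, 1.38 and 0.190 CPM in thymus, again with no overlap (log2 fold change 4.88 ± 0.77 (SE), edgeR adjusted p = 0.000790). Tmem176a (ENSMUSG00000023367, chromosome 6, 48840919 to 48847071), an ion channel of intracellular membranes, had 96.7, 40.4 and 142 CPM in iLN and 11, 0.735, 2.48 and 4.74 CPM in thymus, and iLN replicate 3 was the lowest of its tissue (log2 fold change 4.12 ± 0.57 (SE), edgeR adjusted p = 0.000224). Il7r (ENSMUSG00000003882, chromosome 15, 9505788 to 9530176), the IL-7 receptor α chain, was high in both tissues, with 1238, 986 and 1631 CPM in iLN and 927, 832, 569 and 609.6 CPM in thymus. It rose by less (log2 fold change 0.90 ± 0.17 (SE), edgeR adjusted p = 0.00376), and its call was lost without any 1 of thymus replicates 2, 3 and 4 and iLN replicate 4 (adjusted p between 0.0134 and 0.0269). Cxcr6 (ENSMUSG00000048521, chromosome 9, 123806475 to 123811760), a chemokine receptor of iNKT cells, missed the call (log2 fold change 1.0 ± 0.21 (SE), edgeR adjusted p = 0.0114) with no overlap between the tissues, at 608, 585 and 688 CPM in iLN and 189.8, 296, 421 and 316 CPM in thymus. DESeq2 called Cxcr6 higher, with an adjusted p of 0.00109.

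**Figure D2:**
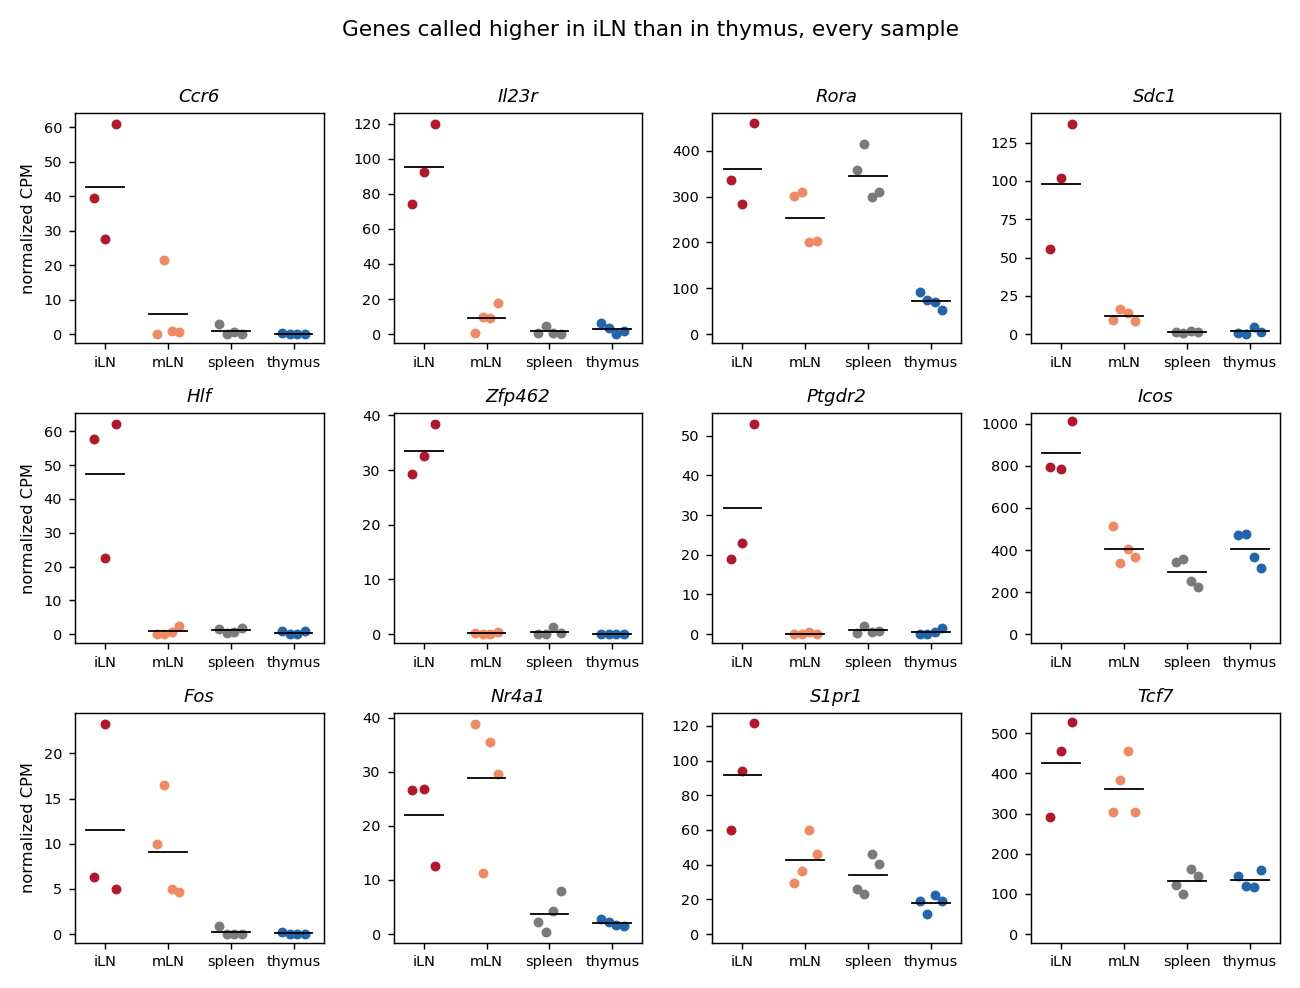
Normalised CPM (y axis, linear) of 12 genes called higher in iLN than in thymus, with 1 point per sample and a line at the mean of each tissue (x axis: iLN, mLN, spleen, thymus). Il23r, Sdc1, Hlf, Zfp462 and Ptgdr2 stand apart in iLN, while the mLN samples overlap the iLN samples in Fos, Nr4a1, Rora and Tcf7.

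Some cytotoxic genes of the NKT1 program fell. Of 24 listed genes, 19 passed the filter, of which 6 were called lower, 0 higher and 13 not called, with a median log2 fold change of -1.23 beside 0.03 over all genes. Gzma (ENSMUSG00000023132, chromosome 13, 113093825 to 113100981), which encodes the granule protease granzyme A, had 0.538, 0.271 and 0 CPM in iLN and 45.2, 69.1, 60.6 and 60.9 CPM in thymus. It was near 0 in every iLN sample and at 45.2 CPM or more in every thymus sample (log2 fold change -7.68 ± 0.94 (SE), edgeR adjusted p = 8.10e-05; within batches -8.84 in batch 1 and -6.68 in batch 2). Nkg7 (ENSMUSG00000004612, chromosome 7, 43437073 to 43438249), a membrane protein of cytotoxic granules, had 87.2, 61.5 and 24.8 CPM in iLN and 341, 367, 307 and 313 CPM in thymus. The tissues did not overlap, and iLN replicate 4 was the lowest sample (log2 fold change -2.52 ± 0.30 (SE), edgeR adjusted p = 5.51e-05; within batches -2.87 in batch 1 and -2.03 in batch 2). Fasl (ENSMUSG00000000817, chromosome 1, 161780689 to 161788495), the ligand of the death receptor Fas, had 30.9, 29.5 and 29.4 CPM in iLN and 65.7, 97.0, 113 and 85.6 CPM in thymus, with all iLN samples lower (log2 fold change -1.59 ± 0.23 (SE), edgeR adjusted p = 0.000388). Il12rb2 (ENSMUSG00000018341, chromosome 6, 67291318 to 67376188), a chain of the IL-12 receptor, had 81.3, 55.0 and 72.4 CPM in iLN and 221, 246, 186 and 211 CPM in thymus, also without overlap (log2 fold change -1.58 ± 0.22 (SE), edgeR adjusted p = 0.000224). Xcl1 (ENSMUSG00000026573, chromosome 1, 164931644 to 164935527), a chemokine that attracts dendritic cells, fell too (log2 fold change -1.43 ± 0.26 (SE), edgeR adjusted p = 0.00314), a call lost without any 1 of thymus replicates 1 and 3 and iLN replicates 2 and 3 (adjusted p between 0.0107 and 0.0177). At an unadjusted p under 0.05, 12 members were lower and 2 higher, and DESeq2 called 10 lower and 1 higher. The 2 higher ones, not called by edgeR, were Il12rb1 (ENSMUSG00000000791, chromosome 8, 70808449 to 70821424), the other chain of the IL-12 receptor, with 58.5, 52.0 and 60.7 CPM in iLN and 35.2, 43.4, 26.2 and 31.5 CPM in thymus and no overlap (log2 fold change 0.77 ± 0.28 (SE), edgeR adjusted p = 0.152), and Il18r1 (ENSMUSG00000026070, chromosome 1, 40465552 to 40500854), a chain of the IL-18 receptor, with 611, 393 and 522 CPM in iLN and 508, 313, 259.8 and 217 CPM in thymus and overlapping tissues (log2 fold change 0.82 ± 0.18 (SE), edgeR adjusted p = 0.0150). DESeq2 called Il18r1 with an adjusted p of 0.00107, and without thymus replicate 1 edgeR called it with an adjusted p of 0.00900.

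Gzmb and Tbx21, also on this list, were not called. Gzmb (ENSMUSG00000015437, chromosome 14, 56258838 to 56262260), which encodes granzyme B, had 0.538, 1.08 and 15.6 CPM in iLN and 390.1, 276, 259 and 278 CPM in thymus. The highest iLN sample, replicate 4, was far below the lowest thymus sample, but the spread within iLN was wide (log2 fold change -5.54 ± 1.21 (SE), edgeR adjusted p = 0.0319). Without iLN replicate 4, Gzmb was called, with an edgeR adjusted p of 0.00274 and a log2 fold change of -8.66. DESeq2 called it with an adjusted p of 0.000121. Tbx21 (ENSMUSG00000001444, chromosome 11, 97098071 to 97115331), which encodes T-bet, had 17.9, 47.1 and 23.4 CPM in iLN and 30.4, 59.5, 78.5 and 98.7 CPM in thymus. The ranges of the tissues overlapped, and Tbx21 was not called (log2 fold change -1.36 ± 0.32 (SE), edgeR adjusted p = 0.0233), whereas DESeq2 called it lower with an adjusted p of 0.00148.

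NK cell receptors formed the list with the most genes called lower. Of 25 listed genes, 22 passed the filter, and 11 were called lower, 0 higher and 11 not called. Without iLN replicate 2 or iLN replicate 4 the number called lower was 6. The median log2 fold change was -3.63, or -3.49 with genes near 0 counts set to their bound. Klrd1 (ENSMUSG00000030165, chromosome 6, 129591782 to 129598775), which encodes CD94, had 8.61, 1.90 and 4.79 CPM in iLN and 123, 99.2, 85.9 and 98.7 CPM in thymus. Every iLN sample lay far below every thymus sample (log2 fold change -4.27 ± 0.44 (SE), edgeR adjusted p = 1.10e-05; within batches -4.72 in batch 1 and -3.70 in batch 2). Klrc2 (ENSMUSG00000052736, chromosome 6, 129647496 to 129660689), a partner chain of CD94, had 25.5, 17.9 and 19.5 CPM in iLN and 186, 209, 158 and 175 CPM in thymus (log2 fold change -3.03 ± 0.40 (SE), edgeR adjusted p = 0.000145). Klrk1 (ENSMUSG00000030149, chromosome 6, 129610323 to 129623864), which encodes NKG2D, had 115, 76.7 and 72.2 CPM in iLN and 269.9, 293, 263 and 266 CPM in thymus. It did not overlap either (log2 fold change -1.62 ± 0.21 (SE), edgeR adjusted p = 0.000125), and its level in iLN was above the mLN mean of 30.8 CPM (iLN over mLN, log2 fold change 1.52 ± 0.20 (SE), edgeR adjusted p = 0.000328). Klrb1c (ENSMUSG00000030325, chromosome 6, 128778485 to 128789215) encodes NK1.1, the marker used to stage iNKT cells in C57BL/6 mice, and had 188, 169 and 131 CPM in iLN and 421, 484, 514 and 508 CPM in thymus. The lowest thymus sample, replicate 1, was more than 2 times the highest iLN sample (log2 fold change -1.56 ± 0.18 (SE), edgeR adjusted p = 3.21e-05; within batches -1.77 in batch 1 and -1.27 in batch 2).

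The Ly49 receptors named here, encoded by Klra genes, were low in iLN. Klra9 (ENSMUSG00000033024, chromosome 6, 130178675 to 130193112) had 4.84, 1.90 and 3.42 CPM in iLN and 229, 156, 189.5 and 209 CPM in thymus, with no overlap (log2 fold change -5.80 ± 0.82 (SE), edgeR adjusted p = 0.000446), and its call was lost without iLN replicate 2 (adjusted p = 0.0113). Klra5 (ENSMUSG00000030173, chromosome 6, 129898996 to 129917650) had 0.179, 0 and 0 CPM in iLN and 40.4, 14.7, 23.1 and 25.0 CPM in thymus. With 1 count over the iLN libraries, the ratio of thymus to iLN was 463 (95% counting interval 82.8 to 18330.0), with an edgeR adjusted p of 0.00119, and the call was lost without iLN replicate 4 (adjusted p = 0.0102). Klra6 (ENSMUSG00000061769, chromosome 6, 130013033 to 130026954) had 0, 0.271 and 0.513 CPM in iLN and 29.6, 9.56, 10.5 and 13.5 CPM in thymus (log2 fold change -5.94 ± 1.16 (SE), edgeR adjusted p = 0.00573), a call lost without any 1 of thymus replicates 1, 2, 3 and 4 and iLN replicates 2, 3 and 4 (adjusted p between 0.0106 and 0.0319). Klre1 (ENSMUSG00000050241, chromosome 6, 129577905 to 129585827), an NK receptor chain, had 0, 1.35 and 1.54 CPM in iLN and 70.3, 29.4, 54.0 and 46.1 CPM in thymus (log2 fold change -5.89 ± 0.81 (SE), edgeR adjusted p = 0.000224). Klra and Klrc genes are near-identical families that share reads, so the split of their counts between members is uncertain. Cd244a (ENSMUSG00000004709, chromosome 1, 171559193 to 171609746), the receptor 2B4, had 0 counts in all 3 iLN libraries and 11.2, 7.35, 6.61 and 17.8 CPM in thymus. It was at least 60.1-fold lower in iLN, against a floor of 3 counts over the 3 iLN libraries, with an edgeR adjusted p of 0.00251, and the call was lost without any 1 of thymus replicate 4 and iLN replicates 2 and 4 (adjusted p between 0.0112 and 0.0200).

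Styk1 (ENSMUSG00000032899, chromosome 6, 131299142 to 131353597), which encodes the receptor-like kinase NOK, had the smallest adjusted p of the genes named here that fell. It had 0, 0 and 0.171 CPM in iLN and 139, 175, 111 and 133 CPM in thymus. A single count remained over the 3 iLN libraries, and the ratio of thymus to iLN was 2032 (95% counting interval 364 to 80309), with an edgeR adjusted p of 3.85e-08. Styk1 was low in mLN and spleen as well, at means of 0.488 and 1.21 CPM. Fcer1g (ENSMUSG00000058715, chromosome 1, 171229572 to 171234365), the signalling adaptor of Fc and NK receptors, had 3.59, 1.35 and 3.42 CPM in iLN and 58.1, 77.9, 46.6 and 48.8 CPM in thymus (log2 fold change -4.31 ± 0.50 (SE), edgeR adjusted p = 5.29e-05). Zfp683 (ENSMUSG00000049410, chromosome 4, 134053838 to 134058996), which encodes the transcription factor Hobit of tissue-resident lymphocytes, had 70.7, 109 and 46 CPM in iLN and 148, 174, 193 and 249 CPM in thymus. Both genes fell without overlap, Zfp683 by less (log2 fold change -1.40 ± 0.23 (SE), edgeR adjusted p = 0.00140). The call of Zfp683 was lost with no batch term (log2 fold change -1.35, adjusted p of 0.0128), with only the 2 tissues (-1.395, 0.0199) and in batch 1 alone (-1.53, 0.0408). In batch 2 alone, with 1 iLN sample, its log2 fold change was -1.19.

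**Figure D3:**
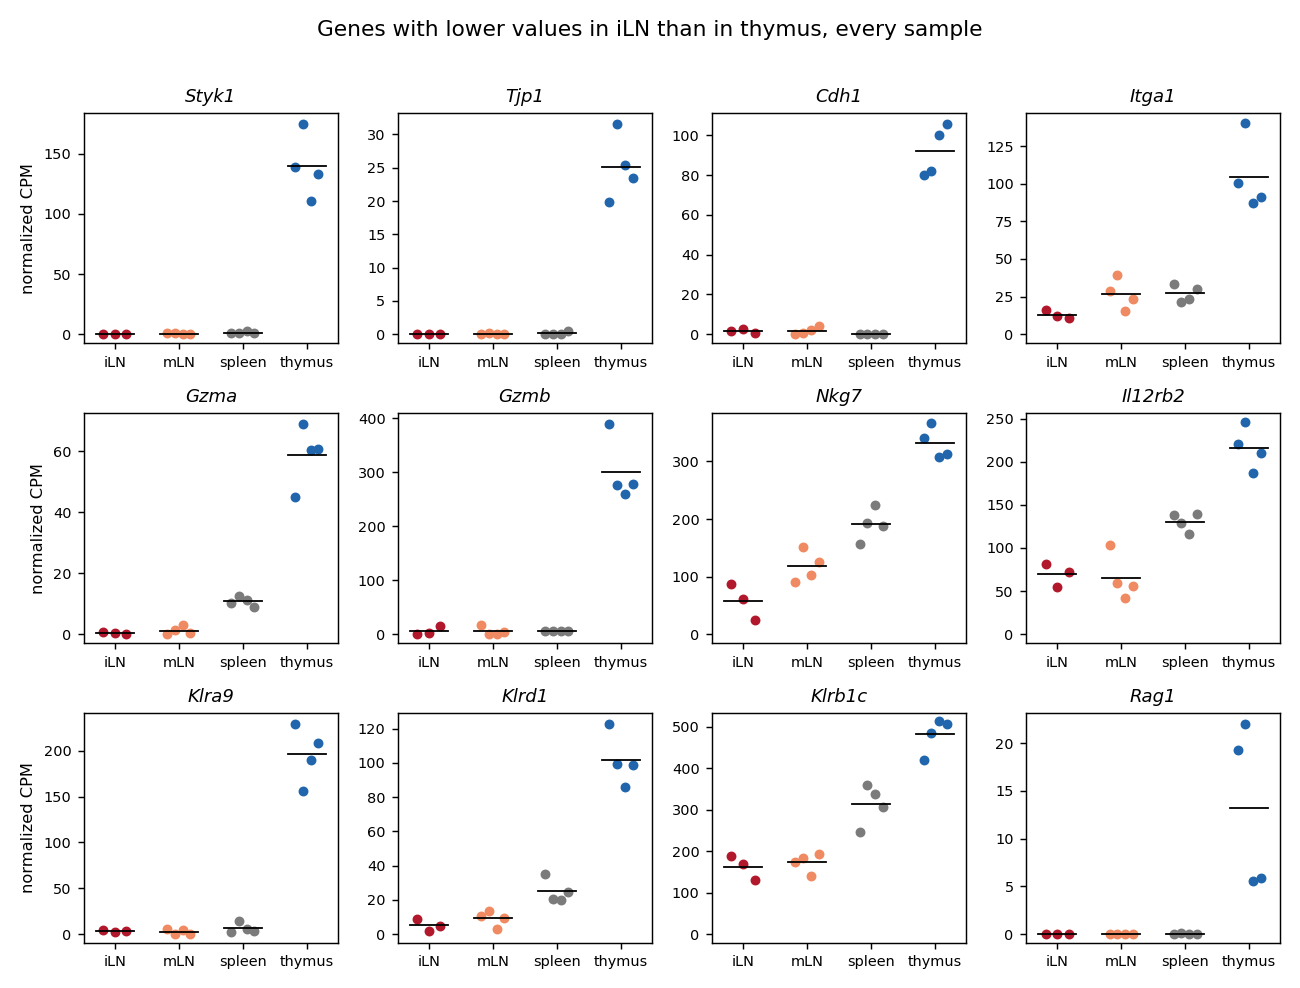
Normalised CPM (y axis, linear) of 12 genes with lower values in iLN than in thymus, with 1 point per sample and a line at the mean of each tissue (x axis: iLN, mLN, spleen, thymus). Of these, 11 were called lower and Gzmb was not, and Styk1, Tjp1, Cdh1 and Rag1 were under 5 CPM in all samples outside the thymus.

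Promoter windows of a few genes that fell are shown to place the letters TGTGGT in them. Windows of 300 bases, from 250 before to 50 after the start of a transcript, were read from RefSeq sequence of GRCm38.p6 and searched on both strands for 9 motifs. These were chosen after the expression values, and the matches of these and of further letter forms in these windows, had been seen. The letters TGTGGT, the core of the Runx motif, occurred in 16.8% of all 32851 windows. They occurred in 6 of the 11 windows of the NK receptor genes called lower (54.5%, 9 of 11 genes had a window) and in 3 of the 5 windows of the cytotoxic genes called lower (60%, 5 of 6 genes had a window). TGTGGT had the most matches of the 9 motifs in both sets, while some other motifs had a higher ratio to their share of all windows. In the NK receptor windows TGANTCA occurred in 4 (36.4%, against 7.81% of all windows) and CACGTG in 3 (27.3%, against 7.15%), and in the cytotoxic windows CACACCC occurred in 2 (40%, against 7.95%). The letters AGGTCA, a half-site of nuclear receptors, occurred in 16.3% of all windows and in 2 of the 13 windows of the NKT17 genes called higher (15.4%, 8 of 11 genes had a window). A match describes letters in a window and was not tested as a site. Capitals mark TGTGGT or its reverse complement ACCACA in Gzma at chr13:113100932-113101231 (minus strand), Nkg7 at chr7:43436888-43437187 (plus strand), Klrk1 at chr6:129623815-129624114 (minus strand) and Klrb1c at chr6:128788592-128788891 (minus strand).
Gzma: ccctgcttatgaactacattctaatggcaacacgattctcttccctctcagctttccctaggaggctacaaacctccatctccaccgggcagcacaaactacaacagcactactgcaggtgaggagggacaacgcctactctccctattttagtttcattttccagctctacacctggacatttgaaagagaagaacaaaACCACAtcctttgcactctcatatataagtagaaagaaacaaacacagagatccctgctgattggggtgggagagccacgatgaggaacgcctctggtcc
Nkg7: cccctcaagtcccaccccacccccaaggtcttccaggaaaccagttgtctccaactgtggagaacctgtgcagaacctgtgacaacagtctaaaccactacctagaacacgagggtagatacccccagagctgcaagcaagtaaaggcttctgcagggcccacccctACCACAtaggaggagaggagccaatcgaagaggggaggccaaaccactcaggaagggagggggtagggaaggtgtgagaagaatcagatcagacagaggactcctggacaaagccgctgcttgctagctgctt
Klrk1: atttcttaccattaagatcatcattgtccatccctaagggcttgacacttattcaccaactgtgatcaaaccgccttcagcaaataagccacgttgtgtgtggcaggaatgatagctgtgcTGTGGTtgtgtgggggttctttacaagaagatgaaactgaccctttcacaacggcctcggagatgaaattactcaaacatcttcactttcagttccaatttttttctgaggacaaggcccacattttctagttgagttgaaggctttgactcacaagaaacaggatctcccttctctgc
Klrb1c: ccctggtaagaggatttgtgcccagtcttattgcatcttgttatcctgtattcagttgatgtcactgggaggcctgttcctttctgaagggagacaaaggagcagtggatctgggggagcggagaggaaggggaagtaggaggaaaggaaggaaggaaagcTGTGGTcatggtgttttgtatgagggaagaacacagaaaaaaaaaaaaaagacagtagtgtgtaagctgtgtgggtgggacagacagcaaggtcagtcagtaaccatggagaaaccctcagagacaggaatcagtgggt

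Among the genes listed for NKT2 cells, Icos and Il6ra rose. Of 13 genes listed for the NKT2 program, 12 passed the filter, and 2 were called higher, 0 lower and 10 not called. At an unadjusted p under 0.05 there were 4 (33.3%, against 16.5% of all genes), all higher. The list had a median log2 fold change of 0.26 beside 0.03 over all genes. Il4, Gata3 and Il17rb, also on the list, were not called. Their log2 fold changes were 0.18, 0.48 and 1.03, with edgeR adjusted p of 0.909, 0.320 and 0.0536. Icos (ENSMUSG00000026009, chromosome 1, 60977927 to 61000320), a costimulatory receptor, had 793, 787 and 1012 CPM in iLN and 473, 476, 365 and 313 CPM in thymus. All 3 iLN samples were above all 4 thymus samples (log2 fold change 1.17 ± 0.17 (SE), edgeR adjusted p = 0.000498; within batches 1.40 in batch 1 and 0.73 in batch 2). Icos was also higher in iLN than in mLN (log2 fold change 1.15 ± 0.17 (SE), edgeR adjusted p = 0.00101). Il6ra (ENSMUSG00000027947, chromosome 3, 89864059 to 89913196), the IL-6 receptor α chain, had 84.5, 32.0 and 45.5 CPM in iLN and 12.1, 13.2, 10.7 and 15.4 CPM in thymus, with iLN replicate 2 the highest. It rose (log2 fold change 2.06 ± 0.35 (SE), edgeR adjusted p = 0.00169), and the call was lost without any 1 of thymus replicates 1 and 3 and iLN replicate 2 (adjusted p between 0.0103 and 0.0289).

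Several cytokine receptors rose. Of 27 listed, 24 passed the filter, 5 were called higher (Il2ra, Il7r, Il6ra, Tgfbr3 and Ifngr2), 1 lower (Il12rb2) and 18 not called, with a median log2 fold change of 0.14. At an unadjusted p under 0.05, 9 were higher and 7 lower, so the list went both ways. The number called higher was 3, 2, 1 and 2 without thymus replicates 1, 2, 3 and 4, and 3 and 2 without iLN replicates 2 and 4. Without thymus replicate 3 it was Il2ra alone. Il2ra (ENSMUSG00000026770, chromosome 2, 11642807 to 11693193), the IL-2 receptor α chain, had 192, 219 and 314 CPM in iLN and 14.9, 5.15, 8.26 and 11.6 CPM in thymus. Its lowest iLN sample was more than 10 times its highest thymus sample, and it had the smallest edgeR adjusted p of the genes named here (log2 fold change 4.49 ± 0.28 (SE), edgeR adjusted p = 2.77e-08; within batches 4.72 in batch 1 and 4.08 in batch 2). In mLN and spleen Il2ra lay between, at means of 103 and 129 CPM. Il2ra is also a marker of regulatory T cells, whose summed markers, given with those of other cell types, were higher in iLN, and their part in this result was not tested. Tgfbr3 (ENSMUSG00000029287, chromosome 5, 107106570 to 107289629), a TGFβ co-receptor, had 75.4, 113 and 108 CPM in iLN and 15.9, 16.2, 43.2 and 38.1 CPM in thymus (log2 fold change 1.76 ± 0.35 (SE), edgeR adjusted p = 0.00595). Ifngr2 (ENSMUSG00000022965, chromosome 16, 91547072 to 91565623), a chain of the interferon γ receptor, had 10, 8.40 and 20.5 CPM in iLN and 2.22, 2.94, 1.38 and 1.90 CPM in thymus (log2 fold change 2.85 ± 0.58 (SE), edgeR adjusted p = 0.00749). Neither overlapped, but the call of Tgfbr3 was lost without any 1 of thymus replicates 1, 2, 3 and 4 and iLN replicates 2, 3 and 4 (adjusted p between 0.0118 and 0.0280), and that of Ifngr2 without any 1 of thymus replicates 1, 2, 3 and 4 and iLN replicate 4 (adjusted p between 0.0170 and 0.0538).

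Costimulatory and inhibitory receptors of the CD28 group were 11 of 12 above the filter, with 2 called higher, 0 lower and 9 not called (median log2 fold change 0.71). Beside Icos the called gene was Cd96 (ENSMUSG00000022657, chromosome 16, 46035657 to 46120251), a receptor for the ligand CD155, with 210.3, 224 and 268 CPM in iLN and 96.6, 92.6, 106 and 97.3 CPM in thymus. Its tissues did not overlap (log2 fold change 1.23 ± 0.15 (SE), edgeR adjusted p = 6.40e-05). Of 15 TNF receptor family genes, 13 passed the filter, with 1 called higher, 0 lower and 12 not called (median 0.39). The called gene was Tnfrsf25 (ENSMUSG00000024793, chromosome 4, 152115934 to 152120119), which encodes death receptor 3, with 19.0, 22.2 and 22.7 CPM in iLN and 2.10, 0.735, 2.2 and 4.55 CPM in thymus (log2 fold change 3.01 ± 0.49 (SE), edgeR adjusted p = 0.00108). Of 11 SLAM family genes and adaptors, 9 passed the filter, with 2 called lower, 0 higher and 7 not called (median -0.20). They were Cd244a and Slamf7 (ENSMUSG00000038179, chromosome 1, 171632403 to 171653035), an activating receptor of NK cells, which had 53.3, 82.1 and 122 CPM in iLN and 303, 262, 247 and 257 CPM in thymus. Slamf7 did not overlap between the tissues (log2 fold change -1.59 ± 0.30 (SE), edgeR adjusted p = 0.00466), and its call was lost without any 1 of thymus replicates 1, 2, 3 and 4 and iLN replicates 2 and 3 (adjusted p between 0.0108 and 0.0321). Of 25 cytokines and secreted factors, 14 passed the filter, and Xcl1 was the 1 called, with 0 higher, 13 not called and a median of 0.22.

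Some chemokine receptors and some genes of egress and homing rose. Of 19 chemokine receptors, 15 passed the filter, and 2 were called higher, 0 lower and 13 not called (median log2 fold change 1.03). Beside Ccr6 this was Ccr2 (ENSMUSG00000049103, chromosome 9, 124101950 to 124113557), the receptor for CCL2, with 337, 271 and 342 CPM in iLN and 74.4, 98.5, 65.8 and 67.4 CPM in thymus. The tissues were far apart, and iLN replicate 3 was the lowest of its tissue (log2 fold change 2.13 ± 0.16 (SE), edgeR adjusted p = 3.66e-07; within batches 2.19 in batch 1 and 1.97 in batch 2). Ccr2 in iLN was also above mLN, where the mean was 156 CPM (log2 fold change 1.10 ± 0.16 (SE), edgeR adjusted p = 0.000720). Of 13 egress and homing genes, all above the filter, 3 were called higher, 0 lower and 10 not called (median 0.56). S1pr1 (ENSMUSG00000045092, chromosome 3, 115710433 to 115715072), the sphingosine-1-phosphate receptor for egress, had 60.1, 93.7 and 122 CPM in iLN and 18.8, 11.8, 22.3 and 18.8 CPM in thymus, with no overlap (log2 fold change 2.19 ± 0.25 (SE), edgeR adjusted p = 3.33e-05).

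Adhesion genes moved in both directions. Of 25 integrins, cadherins and junction proteins, 21 passed the filter, with 2 called higher, 3 lower and 16 not called (median log2 fold change 0.13). Itga4 (ENSMUSG00000027009, chromosome 2, 79255426 to 79333123), the integrin α4 chain and also a homing gene, had 183, 106 and 184 CPM in iLN and 88.5, 108, 43 and 54.1 CPM in thymus. Here iLN replicate 3 fell within the thymus range (log2 fold change 1.33 ± 0.23 (SE), edgeR adjusted p = 0.00191), and the call was lost without any 1 of thymus replicate 3 and iLN replicate 4 (adjusted p between 0.0145 and 0.0148). It was also lost with no batch term (log2 fold change 1.12, edgeR adjusted p = 0.126), with only the 2 tissues (1.31, 0.0173) and in batch 1 alone (1.57, 0.0138). Itgb3 (ENSMUSG00000020689, chromosome 11, 104608000 to 104670476), the integrin β3 chain, had 242, 331 and 364 CPM in iLN and 110.3, 101, 106 and 100.2 CPM in thymus, with no overlap (log2 fold change 1.56 ± 0.21 (SE), edgeR adjusted p = 0.000199). Itga1 (ENSMUSG00000042284, chromosome 13, 114953096 to 115101964), the collagen-binding integrin α1 chain CD49a, fell, with 16.0, 12.2 and 10.9 CPM in iLN and 101, 140.4, 87.0 and 90.9 CPM in thymus. The tissues were far apart (log2 fold change -2.93 ± 0.30 (SE), edgeR adjusted p = 1.04e-05; within batches -2.95 in batch 1 and -2.91 in batch 2).

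A pair of junction genes was near 0 in iLN. Cdh1 (ENSMUSG00000000303, chromosome 8, 106603351 to 106670246) encodes E-cadherin, the adhesion molecule of epithelia and ligand of integrin CD103. It had 1.79, 2.44 and 0.342 CPM in iLN and 80.0, 82.3, 100.3 and 106 CPM in thymus. The thymus samples were all at 80.0 CPM or above and the iLN samples all under 3 CPM (log2 fold change -6.04 ± 0.79 (SE), edgeR adjusted p = 0.000145; within batches -6.37 in batch 1 and -5.49 in batch 2). Tjp1 (ENSMUSG00000030516, chromosome 7, 65296165 to 65527781), the tight junction scaffold ZO-1, had 0 counts in the 3 iLN libraries and 19.9, 31.6, 25.3 and 23.5 CPM in thymus. It was at least 115-fold lower in iLN, against a floor of 3 counts over the 3 libraries, with an edgeR adjusted p of 0.000291. Fgd5 (ENSMUSG00000034037, chromosome 6, 91978878 to 92076004), an exchange factor for CDC42, also had 0 counts in iLN and 18, 30.9, 39.7 and 46.9 CPM in thymus, at least 159-fold lower with an edgeR adjusted p of 0.000446. Summed markers of thymic and other epithelium, 8 genes of which 2 passed the filter, were 8.25, 5.69 and 3.08 CPM in iLN and 6.79, 2.94, 6.89 and 7.21 CPM in thymus. The tissues overlapped in these sums, Psmb11 was the most abundant of the list, Krt5, Krt14 and Foxn1 were at 0 in all samples, and 0 of the 2 were called or reached an unadjusted p under 0.05, with 0 called by DESeq2. Their part in the result was not tested.

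A few immediate early genes of receptor and stress signalling rose. Of 33 listed genes, 29 passed the filter, with 4 called higher, 0 lower and 25 not called (median log2 fold change 0.20). At an unadjusted p under 0.05, 10 were higher and 3 lower (together 44.8%, against 16.5% of all genes), and DESeq2 called 5 higher and 0 lower. Fos (ENSMUSG00000021250, chromosome 12, 85473890 to 85477273), a subunit of the transcription factor AP-1, had 6.28, 23.3 and 4.96 CPM in iLN and 0.247, 0, 0 and 0 CPM in thymus. With 2 counts over the thymus libraries, the ratio of iLN to thymus was 91.1 (95% counting interval 24.8 to 759.5), with an edgeR adjusted p of 0.00245. Fosb (ENSMUSG00000003545, chromosome 7, 19302696 to 19310051), a second Fos protein, had 2.69, 32.8 and 14.4 CPM in iLN and 0.123, 0, 0.275 and 0.379 CPM in thymus, with a wide spread in iLN (log2 fold change 6.34 ± 1.23 (SE), edgeR adjusted p = 0.00573). Jun (ENSMUSG00000052684, chromosome 4, 95049034 to 95052222), their partner, had 12.4, 11.6 and 2.57 CPM in iLN and 0.617, 0, 0.551 and 0.379 CPM in thymus (log2 fold change 4.26 ± 0.86 (SE), edgeR adjusted p = 0.00717). Nr4a1 (ENSMUSG00000023034, chromosome 15, 101254269 to 101274795), an orphan nuclear receptor induced by T cell receptor signals, had 26.6, 26.8 and 12.7 CPM in iLN and 2.84, 2.21, 1.65 and 1.52 CPM in thymus (log2 fold change 3.34 ± 0.67 (SE), edgeR adjusted p = 0.00692; within batches 3.61 in batch 1 and 3.33 in batch 2). In all 4 genes every iLN sample was above every thymus sample. The call of Fos was lost without any 1 of thymus replicates 1, 3 and 4 and iLN replicate 3 (adjusted p between 0.0103 and 0.0175), that of Fosb without any 1 of thymus replicates 1, 2, 3 and 4 and iLN replicates 3 and 4 (adjusted p between 0.0124 and 0.0280), that of Jun without any 1 of thymus replicates 1, 2, 3 and 4 and iLN replicates 2 and 3 (adjusted p between 0.0228 and 0.0328) and that of Nr4a1 without any 1 of thymus replicates 1, 2, 3 and 4 and iLN replicates 2 and 3 (adjusted p between 0.0134 and 0.0611), so that 0 of the list were called without iLN replicate 3, thymus replicate 3 or thymus replicate 4. The means of Fos, Fosb, Jun and Nr4a1 were 9.04, 14.6, 16.3 and 28.9 CPM in mLN and 0.222, 1.35, 4.18 and 3.70 CPM in spleen. The part of tissue preparation in these values was not tested.

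Egr genes, which the same signals induce, were not called. Egr1 (ENSMUSG00000038418, chromosome 18, 34859823 to 34864984) had 75.0, 101 and 127 CPM in iLN and 90.3, 77.2, 80.7 and 84.0 CPM in thymus, and the tissues overlapped (log2 fold change 0.20 ± 0.22 (SE), edgeR adjusted p = 0.714). Egr3 (ENSMUSG00000033730, chromosome 14, 70077203 to 70082614) had 4.31, 4.61 and 2.39 CPM in iLN and 8.52, 14.0, 17.9 and 12.7 CPM in thymus, and here the iLN samples were the lower ones (log2 fold change -1.85 ± 0.61 (SE), edgeR adjusted p = 0.112). Nr4a3 (ENSMUSG00000028341, chromosome 4, 48045153 to 48086447), a relative of Nr4a1, had 35.9, 54.7 and 12.1 CPM in iLN and 15.4, 1.47, 1.93 and 3.23 CPM in thymus. Thymus replicate 1 was above iLN replicate 4, and the gene was not called (log2 fold change 2.51 ± 0.66 (SE), edgeR adjusted p = 0.0416). Without thymus replicate 1, Nr4a3 was called with an edgeR adjusted p of 0.000908, and DESeq2 called it with an adjusted p of 0.00242. Heat shock genes and chaperones, another stress group, were 12 of 15 above the filter and edgeR called 0, with 1 at an unadjusted p under 0.05 (lower) and 0 called by DESeq2 (median log2 fold change -0.09). Their most abundant member, Hspa8 (ENSMUSG00000015656, chromosome 9, 40800984 to 40810087), had 1046, 1303 and 1449.8 CPM in iLN and 1531, 1699, 1867 and 1311 CPM in thymus, with overlapping tissues (log2 fold change -0.41 ± 0.17 (SE), edgeR adjusted p = 0.237).

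Negative regulators of T cell receptor signalling, all 23 above the filter, had 2 genes called lower, 0 higher and 21 not called (median log2 fold change -0.40). Ptpn6 (ENSMUSG00000004266, chromosome 6, 124720707 to 124738714), which encodes the phosphatase SHP-1, had 84.0, 99.4 and 56.8 CPM in iLN and 129, 201, 244 and 272 CPM in thymus. Its highest iLN sample was below its lowest thymus sample (log2 fold change -1.42 ± 0.24 (SE), edgeR adjusted p = 0.00182), and the call was lost without thymus replicate 4 (adjusted p = 0.0104). Ptpn22 (ENSMUSG00000027843, chromosome 3, 103859795 to 103912247), another phosphatase that dampens receptor signals, had 171, 178 and 194 CPM in iLN and 340.2, 409, 277 and 291 CPM in thymus, with no overlap (log2 fold change -0.77 ± 0.15 (SE), edgeR adjusted p = 0.00692). Its call was lost without any 1 of thymus replicates 1, 2, 3 and 4 and iLN replicates 2 and 3 (adjusted p between 0.0119 and 0.0568). Dok2 (ENSMUSG00000022102, chromosome 14, 70766036 to 70778495), an adaptor of the same group that the study names, had 27.1, 44.4 and 27.9 CPM in iLN and 41.6, 47, 67.8 and 66.4 CPM in thymus, with overlap, and was not called (log2 fold change -0.82 ± 0.25 (SE), edgeR adjusted p = 0.0858).

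Several transcription factors of T cells rose. Of 35 listed, 32 passed the filter, 7 were called higher, 0 lower and 25 not called, with a median log2 fold change of 0.60 beside 0.03 over all genes. Beside Rora and Maf they included Tcf7 (ENSMUSG00000000782, chromosome 11, 52252371 to 52283014), which encodes TCF-1, a factor of thymocytes and memory T cells. It had 291, 455 and 529 CPM in iLN and 144, 119, 117 and 159 CPM in thymus. The tissues were apart, and mLN was close to iLN with a mean of 362 CPM (log2 fold change 1.57 ± 0.19 (SE), edgeR adjusted p = 6.87e-05; within batches 1.82 in batch 1 and 1.13 in batch 2). Ikzf2 (ENSMUSG00000025997, chromosome 1, 69531214 to 69687245), which encodes Helios, had 448, 306 and 392 CPM in iLN and 234, 174, 191 and 172 CPM in thymus, also with no overlap (log2 fold change 1.04 ± 0.16 (SE), edgeR adjusted p = 0.000639). The call of Ikzf2 was lost with no batch term (log2 fold change 0.99, edgeR adjusted p = 0.0177) and in batch 1 alone (0.94, 0.0301). Outside this list, Themis (ENSMUSG00000049109, chromosome 10, 28668360 to 28883818), a signalling protein of thymocyte selection that mature T cells keep, had 105, 139 and 85.7 CPM in iLN and 16.8, 28.7, 13.5 and 17.3 CPM in thymus. It rose without overlap (log2 fold change 2.63 ± 0.27 (SE), edgeR adjusted p = 1.04e-05; within batches 2.85 in batch 1 and 2.27 in batch 2).

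Some of the largest rises belonged to genes outside these groups, and a few of them set iLN apart from mLN as well. The comparison of iLN with mLN shares the iLN samples with that of iLN with thymus, so each is given with its own values. It called 64 of 13600 genes (0.471%). Zfp462 (ENSMUSG00000060206, chromosome 4, 54945048 to 55083563), a zinc finger protein of chromatin, had 29.2, 32.5 and 38.5 CPM in iLN and 0 counts in all 4 thymus libraries. It was at least 206-fold higher in iLN, against a floor of 3 counts over the 4 libraries, with an edgeR adjusted p of 0.000342. In mLN it had 0.130, 0, 0 and 0.385 CPM in replicates 1 to 4, with an edgeR adjusted p of 0.000936 for iLN against mLN. Hlf (ENSMUSG00000003949, chromosome 11, 90336536 to 90390895), a PAR bZIP transcription factor, had 57.8, 22.5 and 62.3 CPM in iLN and 0.864, 0, 0 and 0.949 CPM in thymus. It was under 1 CPM in each thymus sample (log2 fold change 6.26 ± 0.97 (SE), edgeR adjusted p = 0.000698), and the call was lost without iLN replicate 2 (adjusted p = 0.0157). In mLN Hlf had 0.130, 0, 0.624 and 2.31 CPM, again far below iLN (log2 fold change 6.13 ± 0.94 (SE), edgeR adjusted p = 0.00127).

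Ptgdr2 (ENSMUSG00000034117, chromosome 19, 10937160 to 10942511) encodes CRTH2, a receptor for prostaglandin D2 known from type 2 lymphocytes. It had 19.0, 23.0 and 53.0 CPM in iLN and 0, 0, 0.551 and 1.52 CPM in thymus, with no overlap (log2 fold change 5.79 ± 1.0 (SE), edgeR adjusted p = 0.00204), and its call was lost without any 1 of thymus replicate 3 and iLN replicate 4 (adjusted p between 0.0145 and 0.0206). In mLN it had 0, 0, 0.416 and 0 CPM, with an edgeR adjusted p of 0.000608 for iLN against mLN. Igf1r (ENSMUSG00000005533, chromosome 7, 67952827 to 68233668), the receptor for insulin-like growth factor 1, had 203, 188 and 191 CPM in iLN and 4.81, 5.15, 15.4 and 7.40 CPM in thymus. Its iLN samples lay close together and far above thymus (log2 fold change 4.56 ± 0.42 (SE), edgeR adjusted p = 4.17e-06), and also above the mLN mean of 41.8 CPM (log2 fold change 2.2 ± 0.37 (SE), edgeR adjusted p = 0.00382). Sdc1 was likewise higher in iLN than in mLN (log2 fold change 2.78 ± 0.50 (SE), edgeR adjusted p = 0.00670), whereas Il23r and Ccr6 were not called there, with log2 fold changes of 3.38 and 4.37 and edgeR adjusted p of 0.0393 and 0.0966. A call in 1 comparison and not in the other was not tested as a difference.

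Other genes among the largest rises were membrane proteins or signalling proteins. Kcnc1 (ENSMUSG00000058975, chromosome 7, 46396497 to 46438704), a voltage-gated potassium channel, had 65.0, 66.4 and 46.7 CPM in iLN and 1.60, 0, 0.275 and 0.379 CPM in thymus (log2 fold change 6.27 ± 0.93 (SE), edgeR adjusted p = 0.000467). Cysltr1 (ENSMUSG00000052821, chromosome X, 106574346 to 106603679), a receptor for cysteinyl leukotrienes, had 29.4, 18.2 and 56.8 CPM in iLN and 0.123, 0, 1.65 and 0.949 CPM in thymus (log2 fold change 5.58 ± 0.76 (SE), edgeR adjusted p = 0.000224). Irak3 (ENSMUSG00000020227, chromosome 10, 120141648 to 120202130), an inhibitor of IL-1 and Toll-like receptor signalling, had 19.6, 24.1 and 29.2 CPM in iLN and 0, 0.735, 1.10 and 0.190 CPM in thymus (log2 fold change 5.90 ± 0.70 (SE), edgeR adjusted p = 5.70e-05). In all of them the iLN samples were above 15 CPM and the thymus samples under 2 CPM. Lingo4 (ENSMUSG00000044505, chromosome 3, 94398517 to 94404501), a leucine-rich repeat membrane protein, had 30.1, 49 and 44.8 CPM in iLN and 0.617, 1.47, 0 and 1.14 CPM in thymus (log2 fold change 5.95 ± 0.74 (SE), edgeR adjusted p = 8.39e-05). Pxdc1 (ENSMUSG00000021411, chromosome 13, 34627834 to 34653486), a PX domain protein, had 37.9, 79.1 and 164 CPM in iLN and 2.47, 2.94, 0.826 and 1.14 CPM in thymus (log2 fold change 5.6 ± 0.85 (SE), edgeR adjusted p = 0.000589). Rhobtb1 (ENSMUSG00000019944, chromosome 10, 69151434 to 69291791), an atypical GTPase, had 7.18, 18.2 and 14.5 CPM in iLN and 0, 0, 0 and 0.379 CPM in thymus. With 2 counts over the thymus libraries, its ratio of iLN to thymus was 117 (95% counting interval 31.9 to 970.3), with an edgeR adjusted p of 0.00501, and the call was lost without any 1 of thymus replicates 1, 2, 3 and 4 and iLN replicates 2, 3 and 4 (adjusted p between 0.0138 and 0.0306).

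Among the largest falls were 3 more genes with few counts in iLN. Gas7 (ENSMUSG00000033066, chromosome 11, 67455437 to 67688990), a cytoskeletal protein, had 0.179, 0 and 0 CPM in iLN and 13.5, 29.4, 11 and 13.3 CPM in thymus. With 1 count over the iLN libraries, its ratio of thymus to iLN was 213 (95% counting interval 37.9 to 8449.8), with an edgeR adjusted p of 0.000342. Kcnj8 (ENSMUSG00000030247, chromosome 6, 142564837 to 142571614), an inward rectifier potassium channel, had 0.179, 0 and 1.2 CPM in iLN and 51.5, 42.6, 31.4 and 39.8 CPM in thymus (log2 fold change -6.89 ± 1.08 (SE), edgeR adjusted p = 0.000790). Ifitm2 (ENSMUSG00000060591, chromosome 7, 140954837 to 140955987), an interferon-induced membrane protein, had 0, 0 and 0.171 CPM in iLN and 11.5, 11.8, 9.64 and 7.40 CPM in thymus, and its ratio of thymus to iLN was 151 (95% counting interval 26.7 to 5979.7), with an edgeR adjusted p of 0.00859. In all 3 genes no iLN sample reached 2 CPM and no thymus sample was under 7 CPM. The call of Ifitm2 was lost without any 1 of thymus replicates 1, 2, 3 and 4 and iLN replicates 2, 3 and 4 (adjusted p between 0.0195 and 0.0464).

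**Figure D4:**
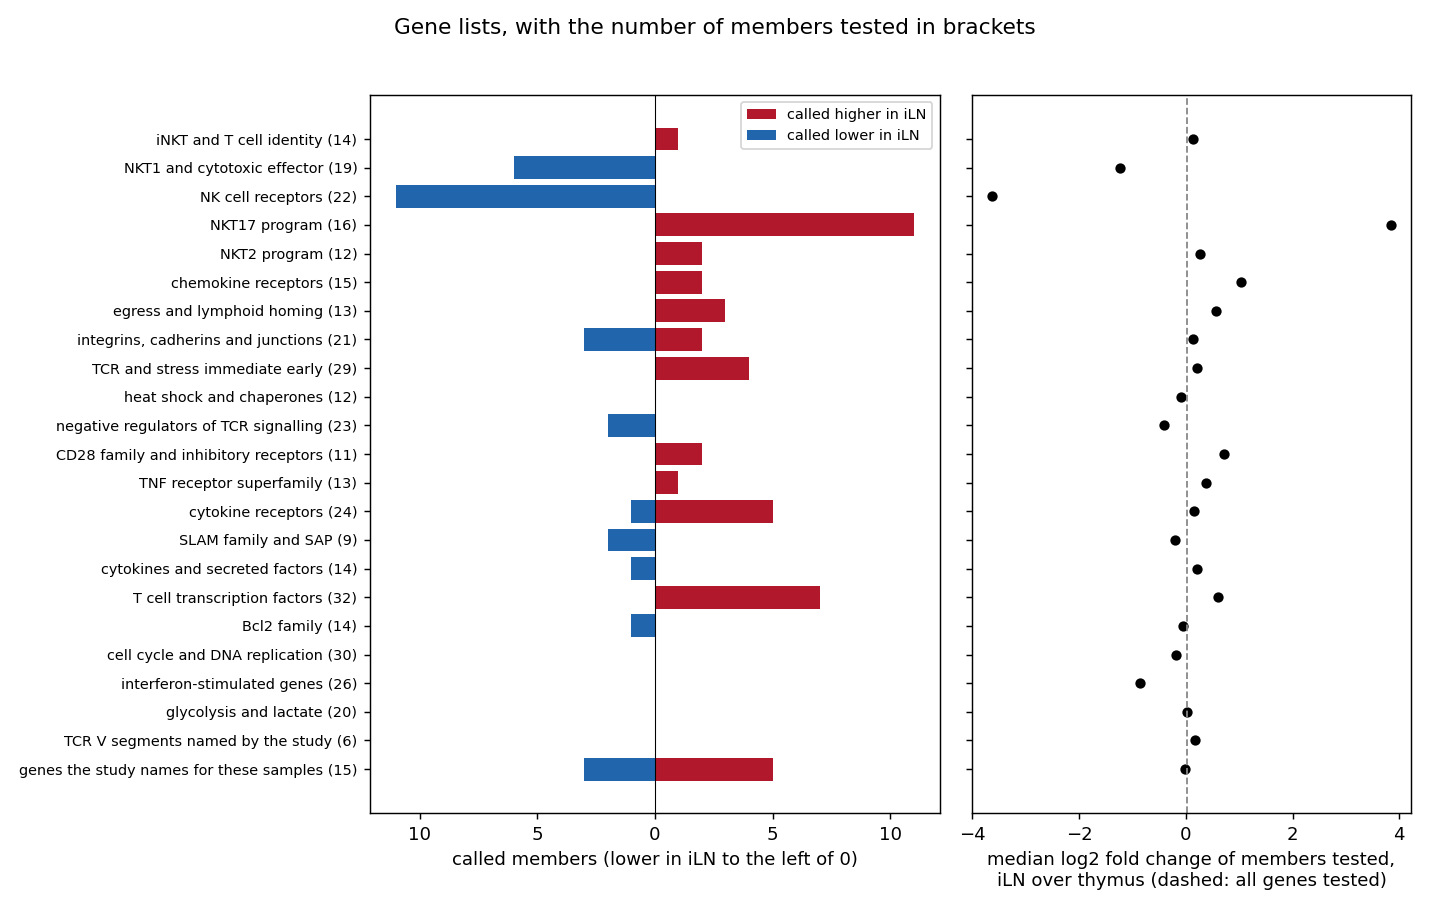
For each gene list (y axis, number of members tested in brackets), bars show the number of members called higher in iLN to the right of 0 and lower to the left, and points show the median log2 fold change of the members tested beside a dashed line at 0.03 for all genes. The NKT17 program had 11 of 16 called higher and NK cell receptors 11 of 22 called lower.

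Housekeeping and survival groups had a single call by edgeR. Of 17 genes of the Bcl2 family, 14 passed the filter, with 1 called lower, 0 higher and 13 not called (median log2 fold change -0.06). Bcl2 (ENSMUSG00000057329, chromosome 1, 106538178 to 106714274), which protects cells from apoptosis, had 127, 120.3 and 156 CPM in iLN and 479.8, 363, 317 and 345 CPM in thymus, and all iLN samples were lower (log2 fold change -1.41 ± 0.21 (SE), edgeR adjusted p = 0.000411; within batches -1.27 in batch 1 and -1.74 in batch 2). Of 32 cell cycle and DNA replication genes, 30 passed the filter and edgeR called 0, with 4 at an unadjusted p under 0.05 (13.3%, below the 16.5% of all genes; 1 higher and 3 lower) and 1 called higher by DESeq2 (median -0.19). Ccnd2 (ENSMUSG00000000184, chromosome 6, 127125162 to 127152193), the most abundant of them and a cyclin of early cell cycle, had 727, 851 and 740.3 CPM in iLN and 819, 897, 856 and 744 CPM in thymus (log2 fold change -0.13 ± 0.12 (SE), edgeR adjusted p = 0.665). Its tissues overlapped. Of 20 glycolysis and lactate genes, edgeR called 0, with 4 at an unadjusted p under 0.05 (2 in each direction) and 0 called by DESeq2 (median 0.02), and Gapdh (ENSMUSG00000057666, chromosome 6, 125161715 to 125166467) had 594, 842 and 702 CPM in iLN and 715, 750.5, 773 and 767 CPM in thymus (log2 fold change -0.10 ± 0.14 (SE), edgeR adjusted p = 0.797).

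Interferon-stimulated genes leaned to the lower side in iLN without a call. Of 26 genes, all above the filter, edgeR called 0, while 11 reached an unadjusted p under 0.05 (42.3%, against 16.5% of all genes), all of them lower in iLN, and DESeq2 called 2 lower. Their median log2 fold change was -0.85, beside 0.03 over all genes. Mx1 (ENSMUSG00000000386, chromosome 16, 97447035 to 97462907), an antiviral GTPase, had 0.359, 2.71 and 0.342 CPM in iLN and 10.9, 30.1, 11.6 and 21.6 CPM in thymus. Every iLN sample was below every thymus sample, and Mx1 missed the call narrowly (log2 fold change -4.43 ± 0.93 (SE), edgeR adjusted p = 0.0101), whereas edgeR called it without iLN replicate 3 (adjusted p of 0.00780), with no filter (8.53e-06), with thinned libraries (0.00789) and with rRNA genes removed (0.00997), and DESeq2 called it with an adjusted p of 4.57e-06.

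Of 7 T cell receptor V segments that the study names, 6 passed the filter and edgeR called 0, with 1 at an unadjusted p under 0.05 (higher) and 0 called by DESeq2 (median log2 fold change 0.17). Of 15 other genes that the study names for these samples, all passed the filter, with 5 called higher, 3 lower and 7 not called (median -0.01). The study names many of them for differences from spleen, which is another comparison than iLN against thymus. The study chose these genes on these samples, so their counts are not independent evidence. The number called higher was 2 without thymus replicate 1, 3 or 4 or iLN replicate 3, and 3 without thymus replicate 2. Those called were Tcf7, Fos, Fosb, Nr4a1 and Icos, higher, and Gzma, Il12rb2 and Ptpn22, lower, with the values above. Ccr4 (ENSMUSG00000047898, chromosome 9, 114490316 to 114504916), a chemokine receptor, had 161, 156 and 157 CPM in iLN and 123, 80.1, 61.7 and 61.7 CPM in thymus. It missed the call with no overlap (log2 fold change 1.03 ± 0.25 (SE), edgeR adjusted p = 0.0284), and DESeq2 called it with an adjusted p of 0.00436. Ccr8 (ENSMUSG00000042262, chromosome 9, 120092114 to 120094906), another chemokine receptor, had 55.8, 65.3 and 10.8 CPM in iLN and 30.1, 35.3, 62.3 and 50.5 CPM in thymus, Cd28 (ENSMUSG00000026012, chromosome 1, 60716800 to 60773359), the costimulatory receptor, had 514, 394 and 487 CPM in iLN and 695, 610.1, 379 and 379.6 CPM in thymus, and Klrg1 (ENSMUSG00000030114, chromosome 6, 122270596 to 122282882), an inhibitory receptor, had 0, 1.08 and 1.2 CPM in iLN and 1.48, 0, 0.826 and 0.190 CPM in thymus. These last 3 overlapped between tissues and were not called, with log2 fold changes of -0.02, -0.01 and -0.14 and edgeR adjusted p of 0.990, 0.983 and 0.967. In iLN against spleen, Ccr8, Ccr4 and Egr1 met the call rule, with log2 fold changes of 8.27, 1.54 and 1.16. Their edgeR adjusted p there were 9.29e-06, 0.00129 and 0.00484, while Egr3, Klrg1, Cd28 and Dok2 did not meet the rule.

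Markers of other cell types, some of which the gate was set to exclude, were summed per sample. The 10 markers of immature thymocytes, 7 of them above the filter with 1 called higher and 1 lower, summed to 162, 169 and 121 CPM in iLN and 117, 172, 50.7 and 50.7 CPM in thymus. The tissues overlapped in this sum. Themis was the most abundant in iLN and Ccr9 in thymus, and without Themis the mean sum was 40.5 CPM in iLN and 78.6 CPM in thymus, where with it the mean was higher in iLN (150.4 against 97.6 CPM). Rag1 (ENSMUSG00000061311, chromosome 2, 101638282 to 101649501), a recombinase of receptor rearrangement, had 0 counts in all iLN libraries and 19.3, 22.1, 5.51 and 5.88 CPM in thymus. The batch 2 thymus samples, replicates 1 and 2, were the higher ones. Rag1 was at least 65.0-fold lower in iLN, against a floor of 3 counts over the 3 libraries, with an edgeR adjusted p of 0.00339, and its call was lost without any 1 of thymus replicates 1, 2, 3 and 4 and iLN replicates 2 and 4 (adjusted p between 0.0107 and 0.0239). Dntt, the terminal transferase of the same stage, had 0, 0 and 0 CPM in iLN and 1.60, 13.2, 1.65 and 1.52 CPM in thymus, and Cd8a, a coreceptor removed by the gate, had 2.33, 0.542 and 0.342 CPM in iLN and 6.05, 20.6, 3.86 and 2.85 CPM in thymus. For these markers and those that follow, their part in the differences between the tissues was not tested.

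The 12 markers of B cells and MHC class II, 10 above the filter, summed to 242, 264 and 203 CPM in iLN and 146, 87.5, 147 and 143 CPM in thymus, so that all iLN samples were above all thymus samples. Ighm was the most abundant in both, and edgeR called 0 of the 10, with 7 at an unadjusted p under 0.05 (all higher in iLN) and 1 called higher by DESeq2. Without Ighm the mean sum was 36.7 CPM in iLN and 9.13 CPM in thymus. The median log2 fold change of the list was 3.604, or 2.78 with genes near 0 counts set to their bound. The 7 regulatory T cell markers, all above the filter with 2 called higher (Il2ra and Ikzf2) and 0 lower, summed to 763, 706 and 843 CPM in iLN and 339, 323, 365 and 371 CPM in thymus. All iLN samples were above all thymus samples in this sum, most of which in iLN was Ikzf2 and Il2ra. At an unadjusted p under 0.05, 6 of the 7 were higher, and DESeq2 called 3 higher. Capg, the member that was not among the 6, had 50.8, 112 and 67.0 CPM in iLN and 63.2, 104, 144 and 167 CPM in thymus, with overlapping tissues and a mean that was lower in iLN. Foxp3 (ENSMUSG00000039521, chromosome X, 7573644 to 7595245), the defining factor of regulatory T cells, had 10.6, 15.2 and 6.50 CPM in iLN and 0.617, 0, 0.551 and 1.14 CPM in thymus. It had no overlap but was not called (log2 fold change 3.97 ± 1.23 (SE), edgeR adjusted p = 0.0892), whereas with no filter on low counts edgeR called it (adjusted p of 0.000272). Il2ra and Ikzf2 are also expressed by iNKT cells, and which cells their transcripts came from here was not tested.

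The 7 γδ T cell markers, 5 above the filter, summed to 908, 653 and 1054 CPM in iLN and 1088, 956, 497 and 464 CPM in thymus, with overlapping tissues. Tcrg-C2 was the most abundant, Trdv4 was at 0 in all samples and Trdc had 0.179, 0 and 0 CPM in iLN and 0.370, 0, 0 and 0.569 CPM in thymus, and edgeR called 0 of 5, with 4 at an unadjusted p under 0.05 (all higher in iLN) and 0 called by DESeq2. Sox13 (ENSMUSG00000070643, chromosome 1, 133382303 to 133424377), a transcription factor among these markers, had 24.9, 31.4 and 29.6 CPM in iLN and 9.50, 5.88, 5.51 and 4.17 CPM in thymus. It did not overlap between the tissues and was not called (log2 fold change 1.90 ± 0.71 (SE), edgeR adjusted p = 0.172). The 10 stroma and endothelium markers, 1 above the filter, summed to 67.3, 76.1 and 66.0 CPM in iLN and 56.9, 47.8, 28.4 and 27.5 CPM in thymus. The iLN samples were above the thymus samples, nearly all of the sum was Pecam1, and Col3a1, Pdgfrb, Pdpn, Lyve1 and Ccl19 were at 0. The 12 myeloid and dendritic markers, 4 above the filter, summed to 12.7, 18.2 and 22.6 CPM in iLN and 20, 16.2, 10.5 and 14.6 CPM in thymus, with Xcr1 the most abundant and Clec9a at 0. The 7 red cell markers, 5 above the filter, summed to 4.84, 1.35 and 0.513 CPM in iLN and 15.2, 10.3, 14.3 and 1.71 CPM in thymus, with Hbb-bs the most abundant in thymus, Hba-a2 in iLN and Hbb-bs at 0 in thymus replicate 4. Hba-a2 had 3.41, 0 and 0 CPM in iLN, and the whole sum of iLN replicates 3 and 4 was Alas2. In these last 3 lists edgeR called 0 genes, with 1 (higher), 1 (higher) and 2 (lower) at an unadjusted p under 0.05, and DESeq2 called 0, 1 and 0.

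**Figure D5:**
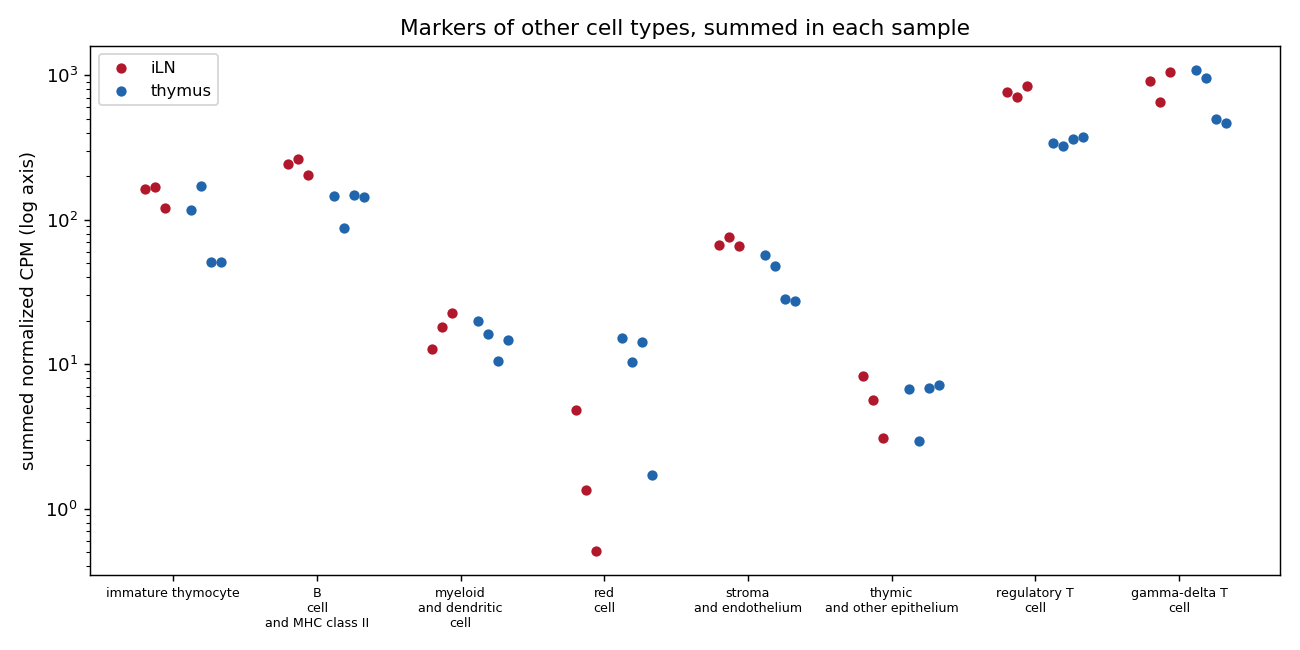
Summed normalised CPM (y axis, log scale) of the markers of 8 other cell types (x axis), with 1 point per sample, iLN in red and thymus in blue. Sums of B cell and MHC class II, stroma and endothelium, and regulatory T cell markers were higher in every iLN sample than in every thymus sample, and the other 5 overlapped.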

How the data were processed

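RNA-seq of sorted iNKT cells was analysed in 15 samples, of which 3 from iLN and 4 from thymus were compared. The study describes 4 samples per tissue, but no iLN sample numbered 1 is among the 15, and why is not stated. After trimming with cutadapt 1.7.1, the authors aligned paired-end reads to GRCm38 with Bowtie2 2.2.9 and deposited RSEM 1.2.31 expected counts, which share reads between near-identical genes. The TPM that the authors deposited, scaled for gene length, were read but give no printed value. The FPKM that the authors deposited were not used. The strand of counting was not stated.

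Each sample listed 48795 genes, 24546 of them with a nonzero total. Expected counts were rounded to whole numbers, filtered with filterByExpr (13600 genes left), normalised by TMM and fitted with the robust quasi-likelihood model of edgeR 4.0.16 (limma 3.58.1, R 4.3.3), with tissue and batch as factors. Genes were called at a Benjamini-Hochberg adjusted p under 0.01 and a fold over 1.5. SE was the log2 fold change over the square root of F. The fit was tested on simulated data. Where a tissue had 0 counts, folds are bounds at 3 counts over its libraries, and with 1 to 3 counts ratios carry exact 95% counting intervals. Both use counts and scaled totals summed over the libraries of each tissue, so they can differ from ratios of mean CPM. Positions are from GENCODE vM21. Tables and figures were made in Python 3.11.15 (matplotlib 3.10.9, pandas 2.3.3, numpy 2.4.6 and scipy 1.17.1).

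Library totals were between 1152702 and 8161474 expected counts in the 7 samples. In iLN libraries, 4.53%, 27.6% and 3.45% of counts lay on nuclear rRNA genes, and in thymus libraries 7.12%, 3.69%, 28.8% and 24.9%.

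The samples and gene lists were chosen with earlier results of these data known. The rule for genes named in the text took the 12 genes with the largest change in each direction among called genes without overlap and averaging 5 CPM or more, up to 4 called genes per list and direction or else the most abundant member, and the genes that the study names. It gave 64 genes, without a few withheld items that are not reported here, and 30 more were named after their values were seen. Alternatives were DESeq2 1.42.0 on all genes above 0, as for the DESeq2 calls in the report, and on the filtered genes, RLE normalisation, no filter, a stricter filter of 10 counts or more per sample, no batch term, a replicate block, only the 2 tissues, libraries thinned to the smallest, rRNA genes removed, each batch alone, an adjusted p under 0.05, and leaving out each sample.

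Before the 9 motifs were kept, a first look at the promoter windows of genes on these lists also covered longer or variable forms, among them the full CRE, longer T-box, Runx and NR4A forms and the CArG box. Its matches are not in results/, and the kept forms and printed windows were chosen after it. Some printed values that end in 0 are given without that last 0, because with it the number check reads them as typed into a script. Their values are unchanged.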

Additional observations from a re-analysis of the deposited data

Results flagged for a closer look

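In thymus, the tissue with 4 samples, 107 quantities (levels of the named genes, summed markers and library measures) were examined for a sample far from the other 3, by Dixon's test, which picks out about 1 in 20 groups by chance. It picked out 8 of them. Ccr6, Fos and Rhobtb1 had 0 counts in all thymus samples but 1, where the test picks out any count above 0. The rate of 1 in 20 is for values that vary continuously, so 8 of 107 cannot be set against it. Values are normalised CPM.

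Thymus replicate 1 was the high sample for Ccr6 (0.370), Fos (0.247), Gzmb (390.1) and Nr4a3 (15.4). For Ccr6 and Fos the other 3 samples were at 0, and replicate 1 held 3 counts of Ccr6 and 2 of Fos. Thymus replicate 2, the library with the fewest counts, was high for Gas7 (29.4) and low for the summed markers of B cells and MHC class II (87.5) and of epithelium (2.94). Thymus replicate 4 was the only one with counts of Rhobtb1 (0.379). No explanation was tested.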

How the results depend on the processing

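With 3 samples against 4, which genes pass depends on the settings. Of the 71 named genes that were called, 45 were called with each sample left out in turn and 4 under every alternative that tested them. Rora was called in all 20 alternatives, and Igf1r, Il2ra and Styk1 in 19, since the stricter filter dropped them. That filter tested 127 of the 204 called genes and 32 of the 71, and all 32 kept the call. Calls were lost for 67 in batch 2 alone, 26 in batch 1 alone, 16 with no batch term, 12 with the replicate block, 11 with only the 2 tissues, 6 with thinned libraries and 1 with no filter. DESeq2 called all 204 genes and more, with the filter on low counts or without it. For counts that moved, the cause was not tested unless fewer genes or samples entered. A sample left alone in its tissue and batch was assumed to vary like the others. Low depth, as in thymus replicate 2, limits genes of a few counts.

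The 204 called genes (119 higher and 85 lower in iLN) became 504 (266 and 238) with DESeq2 on 24238 genes, without the edgeR filter, and 472 (251 and 221) with DESeq2 on the 13600 filtered genes, an alternative chosen after seeing the data. They became 480 (271 and 209) with no filter, 460 (251 and 209) at an adjusted p under 0.05 and 123 (75 and 48) with no batch term. Batch 1 alone gave 114 (67 and 47) and batch 2 alone 7 (4 and 3), with fewer samples. Genes called higher were 79 with at least 10 counts in every sample, where 7827 genes were tested, and 77 with only the 2 tissues. Leaving out 1 sample gave 104 to 171 called genes, 64 to 100 of them higher and 40 to 71 lower. RLE normalisation (201), removing rRNA genes (204) and thinning to the smallest library (211) moved the count by less.

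The labels do not say whether same-numbered samples came from the same mice. Deviations from the tissue means correlated by 0.0418, 0.111 and 0.00151 between same-numbered samples across genes. Samples of the same batch with other numbers correlated by 0.0985, -0.0197 and 0.102. These deviations still hold the batch difference, so they cannot show whether the samples were paired. With the replicate block, 160 genes were called (99 higher and 61 lower), 153 of them among the 204. Thymus replicate 4 correlated more with iLN replicate 3 (0.102) than with its own number. The named genes that changed sign were not called. Log2 fold changes under the replicate block were 0.20 for Klrg1, 0.0081 for Cd28 and -0.016 for Trac. With no batch term Klrg1 was at 0.060. In batch 1, Klrg1 was at 1.21 and Cd28 at 0.21, and in batch 2, Ccr8 was at 0.77 and Egr1 at -0.17. Leaving out 1 sample, Klrg1 was between -0.67 and 0.90, Ccr8 between -0.50 and 0.45, Cd28 between -0.16 and 0.12, Trac between -0.11 and 0.13, and Gapdh between -0.23 and 0.014. The cause was not tested.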

Other observations

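Il17ra, Traf3ip2 and Rasgrp1 were named after their values were seen. Il17ra (ENSMUSG00000002897, chromosome 6, 120463247 to 120487559), the IL-17 receptor, had 240.4, 207 and 243 CPM in iLN and 164, 74.2, 108 and 116 CPM in thymus, and Traf3ip2 (ENSMUSG00000019842, chromosome 10, 39612934 to 39655307), its adaptor Act1, had 43.1, 75.6 and 51.5 CPM in iLN and 17.5, 27.9, 21.5 and 26.6 CPM in thymus. Neither overlapped between the tissues. Both rose (log2 fold change 1.02 ± 0.21 (SE), edgeR adjusted p = 0.00887, and log2 fold change 1.24 ± 0.25 (SE), edgeR adjusted p = 0.00824), but the calls were lost without any 1 of thymus replicates 2, 3 and 4 and iLN replicates 2, 3 and 4 (adjusted p between 0.0137 and 0.0427) for Il17ra and without any 1 of thymus replicates 1, 3 and 4 and iLN replicates 2, 3 and 4 (adjusted p between 0.0132 and 0.0491) for Traf3ip2. Rasgrp1 (ENSMUSG00000027347, chromosome 2, 117279993 to 117343001), which activates Ras after receptor signals, had 414, 348 and 437 CPM in iLN and 214, 255, 155 and 197 CPM in thymus. All 3 iLN samples were above all 4 thymus samples (log2 fold change 1.05 ± 0.15 (SE), edgeR adjusted p = 0.000342). The call of Rasgrp1 was lost with no batch term (log2 fold change 0.96, edgeR adjusted p = 0.0204) and in batch 1 alone (1.15, 0.0123).

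Nr1d1 (ENSMUSG00000020889, chromosome 11, 98767932 to 98775333), which encodes the circadian repressor REV-ERBα, had 69.1, 98.9 and 121 CPM in iLN and 6.17, 0.735, 8.54 and 6.26 CPM in thymus. Thymus replicate 2 was the lowest sample, and the tissues were far apart (log2 fold change 4.01 ± 0.54 (SE), edgeR adjusted p = 0.000176). Means in mLN and spleen were 26.7 and 28.8 CPM. Times of day of tissue collection are not given in the labels.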
